A study of Arabidopsis thaliana with 9 samples.

Results

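Arabidopsis thaliana plants with a null mutation of HDA6 were compared with plants that carry an amino acid substitution in HDA6. The arrays were chosen by their titles, 3 for the null mutant and 3 for the substitution, which made 6 of the 9 arrays of the series. Another 3 arrays, titled double transformant, were used only as a level beside them. The null mutant and substitution plants shared their source, rts1-1, their strain, Col-0, and the note of an EMS-induced mutation in HDA6. The double transformant plants had Columbia as their source, with no HDA6 mutation named. Whole plants of all groups were grown for 35 days on plates of Murashige and Skoog medium at 21 °C in constant light. Night humidity was 53% for the 6 mutant arrays and for double transformant 2 and 3, and 35% for double transformant 1. Since both mutant groups name the same source, the labels do not settle whether they are separate alleles or lines. The residue that is substituted, what the double transformant carries and whether the mutants carry it too were not given in the sources used here.

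HDA6 is a histone deacetylase, an enzyme that removes acetyl groups from histone tails. It works together with DNA methylation to keep transposons, repeats, ribosomal RNA genes and some transgenes silent, and it also takes part in flowering and stress responses. A null mutation takes away the function of the protein, whereas a substitution may leave a protein with altered activity. The comparison addressed what differs between plants titled in these ways. No probe set carries the name of HDA6 in the annotation used here, and its own RNA was not analysed. In whole-plant RNA, fewer cells that express a gene and less of its RNA per cell cannot be told apart.

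Levels are MAS5 signals, a linear brightness per probe set, with a median signal of 34.1 over all values. Differences are null mutant minus substitution on the log2(signal + 4.03) scale, which understates the change of dim probe sets. RNA of photosynthetic tissue was present in all groups, as for whole plants, while of 3 measured root markers only PYK10 was well above background. RCA, which activates Rubisco, averaged 6123 in the null mutant, 5265 in the substitution and 6329 in the double transformant, and PYK10, a root glucosidase, averaged 1112, 1183 and 966 in the same order. EXPA7 and EXPA18, also on the root list, had group means from 1.53 to 5.92. No mean of the 6 pollen and tapetum markers exceeded 4.44 in the null mutant, 2.53 in the substitution or 14.0 in the double transformant. Log2 signals correlated at 0.945 to 0.963 within the null mutant, 0.972 to 0.977 within the substitution and 0.956 to 0.974 within the double transformant. The median SD between the arrays of a group was 0.217 for the null mutant, 0.154 for the substitution and 0.193 for the double transformant. Null mutant 2 correlated most with substitution 3, at 0.980, and at 0.963 and 0.950 with the other null mutant arrays. Null mutant 3 correlated at 0.947 on average with its own group, the lowest of the 6 mutant arrays, and had a GAPDH 3' to 5' ratio of 1.95, against 1.38 to 1.82 in the other 5.

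The null mutant and the substitution differed in few transcripts. Of 22746 probe sets, 9 passed the test (limma, Benjamini-Hochberg adjusted p under 0.05), which is 0.0396%. Of these, 8 (0.0352% of probe sets) were higher in the null mutant and 1 (0.0044%) was lower. Of the 8, 3 belong to 1 stretch of chromosome 5, 4 have no gene name here and 1 is AT3G02200. The lower one was AT3G16670. The same fit called 0.761% of probe sets for the null mutant against the double transformant and 0.747% for the substitution against it, which share the double transformant arrays. An unadjusted p under 0.05 was reached by 1447 probe sets, or 6.36%, and the 3 arrays of the null mutant lay all above or all below those of the substitution for 11.7% (6.06% above and 5.6% below). Over the 13286 named loci, 6.22% lay all above and 5.31% all below. Whether the plants behind the arrays of 1 group were grown separately is not stated, and the p-values therefore cover only array-to-array spread, which may be technical. The count changed with single arrays. No probe set passed after removal of null mutant 3, substitution 1 or substitution 3, where limma left a count of 0 with 960, 901 and 1233 probe sets at an unadjusted p under 0.05. Removing null mutant 2 raised the count to 48 (20 higher and 28 lower) and removing null mutant 1 left 3. Removing substitution 2 left 4, removing double transformant 1 gave 14, and removing double transformant 2 or 3 left 3 each. All 9 kept their sign in each of these fits, which was fixed in advance because their mutant arrays did not overlap.

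**Figure D1:**
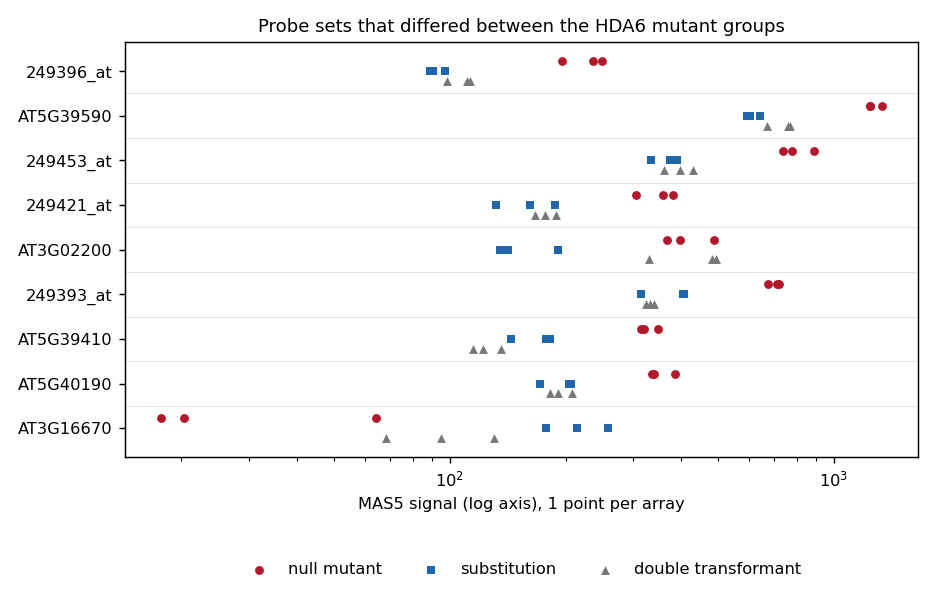
MAS5 signal (log axis) of the 9 probe sets that passed between the HDA6 mutant groups, 1 point per array, for the null mutant (circles), the substitution (squares) and the double transformant (triangles). In 7 rows the null mutant lies above both other groups, in AT3G02200 the substitution lies below both, and in AT3G16670 the null mutant lies below both.

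AT5G39590 had the smallest adjusted p among named genes. Its signal was 1241, 1337 and 1238 in the null mutant arrays, 593, 641 and 606 in the substitution arrays, and 758, 668 and 769.6 in the double transformant arrays. The difference was 1.05 ± 0.11 (SE, limma adjusted p = 0.00678), or 2.07 times the substitution mean. The lowest null mutant array thus lay far above the highest of the other 6, and the substitution lay just below the double transformant, by -0.25 (adjusted p = 0.386).

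AT5G39410 read 321, 314 and 347 in the null mutant, against 178, 182 and 144 in the substitution, and 115, 122 and 136 in the double transformant. It differed by 0.95 ± 0.12 (limma adjusted p = 0.0259), and the 3 groups followed each other without overlap. AT5G40190 stood at 385, 339 and 336 in the null mutant, against 206, 171 and 204 in the substitution and 182, 208 and 192 in the double transformant. Here the difference was 0.86 ± 0.12 (limma adjusted p = 0.033), and the arrays of the substitution and the double transformant overlapped.

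The 4 unnamed probe sets showed the same picture. The signal of 249396_at was 195, 236 and 248 in the null mutant, against 90.6, 97.0 and 88.9 in the substitution and 112, 98.3 and 111 in the double transformant, a difference of 1.26 ± 0.13 (limma adjusted p = 0.00678). For 249453_at it was 738, 885 and 777 in the null mutant, against 333, 373 and 391 in the substitution and 430.3, 397 and 361 in the double transformant, a difference of 1.12 ± 0.12. In both, every null mutant array lay above all 6 others, and the substitution and double transformant arrays lay close together. The remaining pair, 249421_at and 249393_at, differed by 1.11 ± 0.14 and 0.90 ± 0.12 with adjusted p = 0.0259 in the limma fit. Against the double transformant, all 4 differed by 0.95 to 1.06 in the null mutant, against -0.21 to 0.16 in the substitution. Their identifiers fall within 249381 to 249503, the range spanned by the chromosome 5 stretch's own probe sets, but no table used here places them on the genome.

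The chromosome 5 stretch ran from AT5G39250 to AT5G40190 and was picked from these same values, so its counts describe it and test nothing. The annotation used here measured 46 of its loci, and 3 of them passed. Of the 46, 37 were higher on average in the null mutant, beside 7293 of all 13286 loci. To compare levels well above background, 14 loci whose double transformant mean exceeded the median signal were taken, a choice that uses neither mutant group. All 14 were higher in the null mutant, by a median of 0.87 (0.66 to 1.15), and for 13 the null mutant arrays lay all above the substitution arrays, which holds for 6.65% of the 5868 loci of that brightness. As ratios of group means, the null mutant stood at 1.62 to 2.37 times the substitution, with a median of 1.93. Of all 12 loci taken as most clearly higher in the null mutant, by smallest p among loci without overlap, 11 lay in this stretch.

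The level of the stretch was alike in the 3 null mutant arrays and near that of the double transformant in each substitution array. Relative to the double transformant mean, the median of the 14 loci was 0.94, 0.93 and 1.03 in null mutant 1, 2 and 3. In substitution 1, 2 and 3 it was 0.06, -0.01 and 0.14, which is close to the 0.07, -0.01 and -0.08 of the double transformant arrays themselves. Null mutant 2, which otherwise correlated most with a substitution array, was thus as high here as the other null mutant arrays. Leaving out any 1 mutant array gave medians between 0.83 and 0.93, and leaving out a double transformant array cannot change this difference. That the medians stayed positive was fixed by the choice of the stretch, where the mutant arrays hardly overlapped. In the limma fit 7 of the 14 loci passed for the null mutant against the double transformant and 1 passed for the substitution against it. Of all 5868 loci of that brightness, 40 and 51 passed in the same order.

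Within the stretch the loci varied in how the substitution stood. AT5G39850 was 189, 179.9 and 189 in the null mutant, against 99.3, 107 and 114 in the substitution, and 63.6, 52.4 and 42.1 in the double transformant. It was the locus that passed in both mutants against the double transformant, with 1.76 and 0.98, and it differed between the mutants by 0.78 ± 0.15 (limma adjusted p = 0.224). AT5G39570, the brightest, read 2201, 1458 and 1875 in the null mutant, against 1137, 1047 and 1009.5 in the substitution and 1105, 1058 and 971 in the double transformant, so that only the null mutant stood apart, by 0.77 ± 0.15 (limma adjusted p = 0.227). AT5G39250, the first locus, was 93.2, 129.5 and 165 in the null mutant, against 52.5, 55.7 and 55.5 in the substitution and 76.6, 69.3 and 46.3 in the double transformant. AT5G39520 was the exception to the clean separation, at 163, 493 and 173 in the null mutant, against 164, 149 and 106 in the substitution and 126, 56.2 and 53.7 in the double transformant. Its null mutant 2 array was far above the other 2, and the lowest null mutant array lay below the highest substitution array.

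The dim loci of the stretch followed less evenly. Of 32 loci at or below the median signal in the double transformant, 23 were positive, with a median of 0.44 and a range of -0.46 to 1.15. For 6 of the 32 the null mutant arrays all lay above the substitution arrays, which holds for 6.22% of all loci. AT5G39980 was the clearest of them, at 60.6, 62.2 and 72.6 in the null mutant, against 30.3, 35.2 and 31.6 in the substitution and 31.7, 28.8 and 31.3 in the double transformant, a difference of 0.92 ± 0.19. The alpha-expansin genes EXPA21 and EXPA24, whose family of proteins loosens cell walls, were close to background and gave no clear level. EXPA21 read 0.566, 0.320 and 16.0 in the null mutant, against 0.532, 1.18 and 0.595 in the substitution.

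The edges were set from these same values, so a fall beyond them was part of the choice. AT5G39080, the last locus of that brightness before the stretch, was 148, 168 and 109 in the null mutant, against 171, 203 and 156 in the substitution, a difference of -0.32 with overlapping arrays. AT5G40250, the first one after it, was 74.7, 55.7 and 68.4 in the null mutant, against 48.5, 53.6 and 68.7 in the substitution, a difference of 0.21, again with overlap. The 10 bright loci before the stretch had a median of -0.13 and the 10 after it 0.09, and the other 1385 bright loci of chromosome 5 had 0.02. The highest of the 10 after it was AT5G40340, at 0.56. In windows of 11 neighbouring bright loci, the 14 windows centred in the stretch had medians of 0.66 to 0.95, against -0.45 to 0.56 in 5736 other windows. The highest of those others was centred on AT5G40250 and so still held loci of the stretch. Outside chromosome 5 the highest window median was 0.32, centred on AT1G19680.

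**Figure D2:**
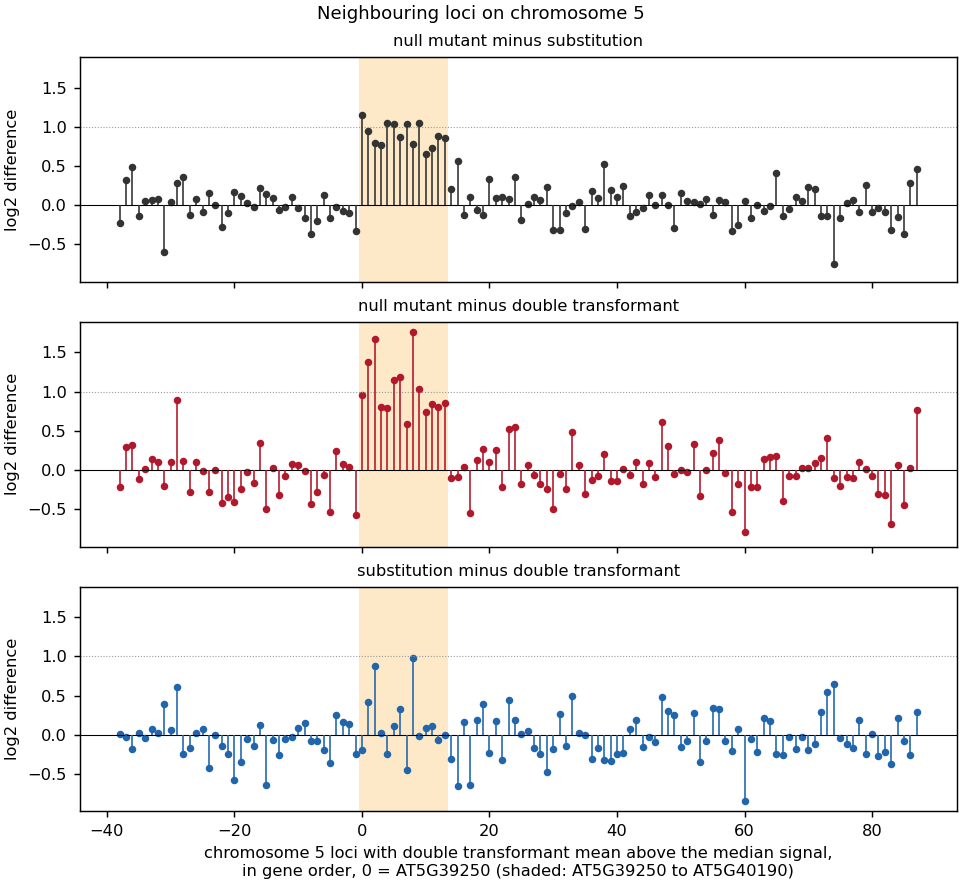
Log2 differences (y axis) of chromosome 5 loci with a double transformant mean above the median signal, in gene order (x axis, 0 = AT5G39250), for the null mutant minus the substitution (top), the null mutant minus the double transformant (middle) and the substitution minus the double transformant (bottom); the shaded band marks the 14 loci from AT5G39250 to AT5G40190. All 14 are above 0 in the top and middle panels, with medians of 0.87 and 0.91, while the bottom panel has a median of 0.06.

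AT3G02200 stood low in the substitution, while the null mutant was at the double transformant's level. It read 398, 368 and 488 in the null mutant arrays, 142, 191 and 135 in the substitution arrays, and 331, 481 and 492 in the double transformant arrays. The difference was 1.41 ± 0.18 (limma adjusted p = 0.0259), and all substitution arrays lay below the other 6, while the null mutant and the double transformant overlapped and differed by -0.04. It passed in 12 of 23 other settings, and its difference lay between 1.29 and 1.56 in all of them.

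AT3G16670 differed in the opposite direction and by the largest amount of the 9. Its signal was 20.3, 64.3 and 17.7 in the null mutant, against 214, 258 and 178 in the substitution and 129.9, 68.0 and 94.5 in the double transformant. The null mutant was lower than the substitution by 2.72 on the log2 scale (-2.72 ± 0.38, limma adjusted p = 0.0356), with the double transformant between them. Neither mutant passed against the double transformant, at -1.57 (adjusted p = 0.105) for the null mutant and 1.15 (adjusted p = 0.236) for the substitution. The call was held in 6 of 23 other settings, with differences from -3.25 to -2.32.

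The 12 loci most clearly lower in the null mutant, by smallest p among loci whose arrays did not overlap, were spread over the genome, and none lay in the chromosome 5 stretch. Only AT3G16670 among them passed. AT5G22580 came next, at 172, 177 and 139 in the null mutant, against 389, 365 and 315 in the substitution, and 138, 115 and 84.9 in the double transformant. It differed by -1.11 ± 0.17 (limma adjusted p = 0.0878) and stood higher in the substitution than in the double transformant by 1.64 (adjusted p = 0.000854), against 0.53 for the null mutant. AT5G50335 was also highest in the substitution, at 41.4, 59.5 and 47.2 in the null mutant, against 114, 168 and 81.8 in the substitution and 40.0, 49.0 and 46.9 in the double transformant. There the substitution differed from the double transformant by 1.29 (adjusted p = 0.0368) and the null mutant by 0.10.

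3xHMG-box2, which encodes a protein with high mobility group boxes that bind DNA, read 65.7, 75.7 and 65.9 in the null mutant, against 129, 134 and 110.3 in the substitution. The double transformant read 77.6, 72.2 and 88.6, close to the null mutant, and the difference between the mutants was -0.81 ± 0.14 (limma adjusted p = 0.171). AT4G27300 was likewise at 143, 181 and 123 in the null mutant, against 265, 278 and 254 in the substitution and 182, 179 and 145 in the double transformant. In both, the substitution arrays lay above all 6 others.

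In other loci the null mutant lay below both groups. AT1G72940 read 44.3, 44.9 and 44.3 in the null mutant, against 134, 80.4 and 82.6 in the substitution, and 62.7, 81.6 and 80.8 in the double transformant. Its difference was -1.05 ± 0.20, with the 3 null mutant arrays nearly identical and below the other 6. AT1G72900 (-1.21), AT1G55360 (-0.69) and AT4G17245 (-0.88) had the same order of groups, and none of these passed (adjusted p = 0.224 to 0.248). AT2G39980 was at 47.5, 72.1 and 35.6 in the null mutant, against 176, 213 and 139 in the substitution, with double transformant arrays at 152, 63.1 and 55.0 that overlapped both.

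**Figure D3:**
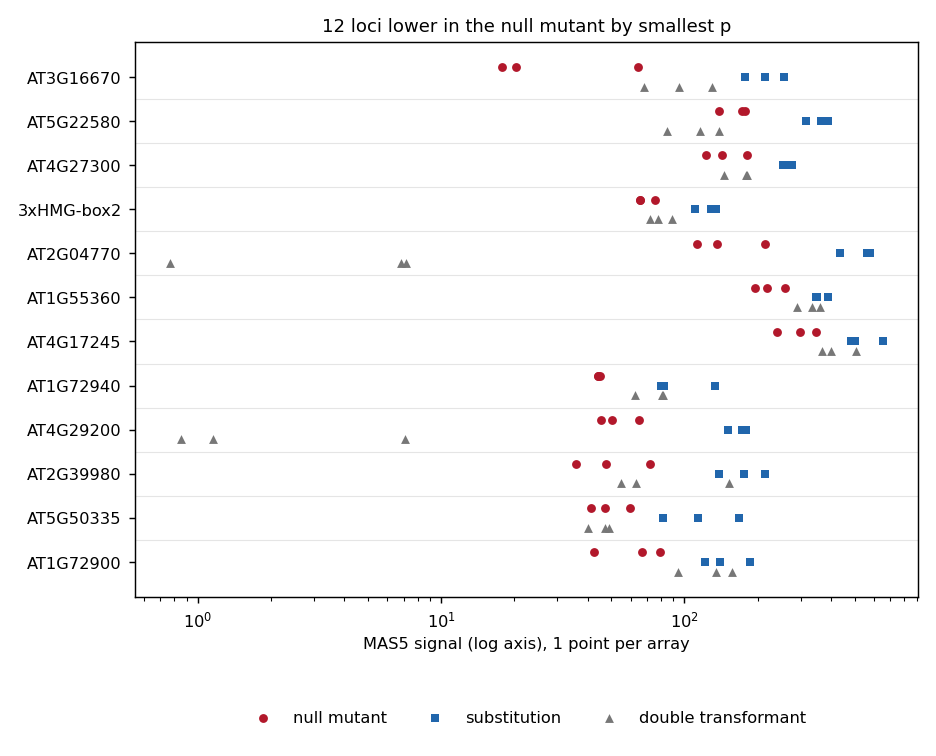
MAS5 signal (log axis) of the 12 loci with the smallest p among those lower in the null mutant, 1 point per array, with the null mutant as circles, the substitution as squares and the double transformant as triangles. The circles lie left of the squares in every row by the choice of loci, and AT2G04770 and AT4G29200 are the rows in which the double transformant is far below both, at 0.768 to 7.19.

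Loci that rise most against the double transformant when HDA6 is mutated were compared next, 12 in all, which had been picked from these arrays for their rise in either mutant. None of the 12 passed between the mutants, and 3 lay above and 4 below in the null mutant without overlap, where 11.7% of all probe sets did not overlap. The choice itself can set the mutants apart, so these counts describe the loci and test nothing. Their median difference was -0.01, against 0.03 over all probe sets, with a range of -1.78 to 0.81. They thus fell into loci that differed little, loci higher in the null mutant and loci higher in the substitution.

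QQS, an orphan gene that takes part in starch metabolism, differed little. It read 861, 1049 and 1064 in the null mutant, against 913, 1071 and 996 in the substitution, and 9.63, 12.6 and 10.6 in the double transformant. The difference between the mutants was -0.01, with a 95% interval from -0.28 to 0.27, although both stood 6.06 above the double transformant on the log2 scale. AT5G26270 was similar, at 1249, 835 and 997 in the null mutant, against 1113, 1021 and 988 in the substitution, with a difference of -0.04 (95% interval -0.47 to 0.40). AT2G15560 differed by 0.24 (-0.10 to 0.59), AT5G45570 by -0.02 (-0.69 to 0.65) and AT1G59930 by 0.32 (-0.43 to 1.07). The probe set of AT1G59930 has a suffix that marks probes shared with related sequences.

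AT2G04770, a pseudogene, was at 136, 112 and 215 in the null mutant, against 561, 581 and 437 in the substitution and 0.768, 6.82 and 7.19 in the double transformant. It differed by -1.78 ± 0.32 (limma adjusted p = 0.171), and its probe set has a suffix that marks probes shared with related sequences. AT4G29200 read 45.2, 50.2 and 65.1 in the null mutant, against 173, 152 and 179 in the substitution, and 7.10, 0.855 and 1.16 in the double transformant, a difference of -1.59 ± 0.31 (limma adjusted p = 0.224). In both, every substitution array lay above every null mutant array by a wide gap. AT1G58025 followed, at 468, 665 and 366 in the null mutant, against 1363, 1179 and 1319 in the substitution and 0.969, 0.694 and 10.5 in the double transformant, with -1.40 ± 0.36 (limma adjusted p = 0.468). AT5G01080 was also lower without overlap, by -0.82 ± 0.24.

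The opposite order was seen in AT5G41660, at 160.2, 163 and 161 in the null mutant, against 94.9, 91.0 and 103 in the substitution and 5.65, 3.92 and 2.79 in the double transformant. It differed by 0.72 ± 0.19 (limma adjusted p = 0.498), with null mutant arrays that were almost equal. AT5G07570 read 104, 86.9 and 123 in the null mutant, against 64.1, 46.4 and 63.7 in the substitution, a difference of 0.81 ± 0.26. AT2G04000, another pseudogene read by a shared probe set, differed by 0.53 ± 0.23 (limma adjusted p = 0.774), also without overlap.

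**Figure D4:**
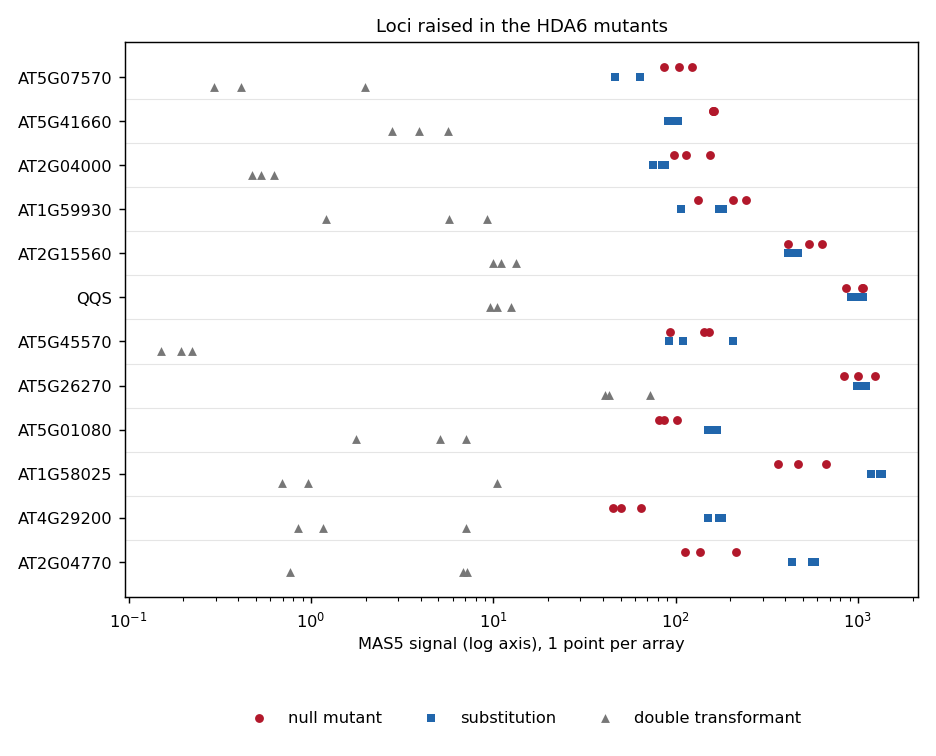
MAS5 signal (log axis) of 12 loci picked for their rise against the double transformant in either mutant, 1 point per array, ordered from higher in the null mutant (top) to higher in the substitution (bottom). Both mutants stand far above the double transformant (triangles) in each row, while null mutant (circles) and substitution (squares) differ by -1.78 to 0.81 on the log2 scale.

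Among 18 loci picked for a fall against the double transformant in either mutant, 1 passed between the mutants, AT3G02200. The null mutant lay above the substitution without overlap for 5 and below it for 4, beside 6.06% and 5.6% of all probe sets, and the median difference was -0.04. A locus picked for its fall in 1 mutant tends to be lower in that mutant by the choice itself. These counts and the call therefore describe the loci and test nothing. AT4G16870, a pseudogene, was low in both, at 14.1, 13.1 and 21.6 in the null mutant, against 19.4, 19.1 and 16.6 in the substitution and 85.1, 102 and 123 in the double transformant. Its difference was -0.16 (95% interval -0.71 to 0.38), with overlapping mutant arrays. LCR68, a defensin-like gene, was lower in the null mutant, at 152, 228 and 157, against 302, 260.1 and 318 in the substitution and 385, 421 and 395 in the double transformant. It differed by -0.72 ± 0.15 (limma adjusted p = 0.268), and the 3 groups followed each other without overlap. Without null mutant 2 it passed, at -0.90 (limma adjusted p = 0.0232). AT4G16563 had the reverse order in the mutants, at 53.8, 62.8 and 69.9 in the null mutant, against 36.5, 36.2 and 34.1 in the substitution and 112, 268 and 178 in the double transformant, with 0.73 ± 0.25.

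XTH33 and EXLA1, genes for a xyloglucan-modifying enzyme and an expansin-like protein of the cell wall, were both less low in the null mutant. XTH33 stood at 39.5, 74.7 and 62.6 in the null mutant, against 19.8, 15.1 and 37.5 in the substitution and 92.2, 343 and 225 in the double transformant. EXLA1 stood at 202, 158 and 264 in the null mutant, against 70.2, 43.3 and 162 in the substitution and 326.5, 1172 and 560.5 in the double transformant. The differences were 1.197 ± 0.43 and 1.31 ± 0.47 (limma adjusted p = 0.708 and 0.702). Substitution 3 was the highest of its group for both, and for EXLA1 it overlapped the null mutant.

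Of 20 lists of gene symbols for pathways and cell types, 101 members were measured, and 0 passed between the mutants in limma. An unadjusted p under 0.05 was reached by 14 (13.9%), beside 6.14% of all loci. The lists were chosen with earlier results of these arrays known, so these shares describe the members and test nothing. The null mutant lay above without overlap for 5 (4.95%, beside 6.22% of all loci) and below for 11 (10.9%, beside 5.31%), and the median difference was -0.02. Of all 13286 loci, 7293 were positive and 5993 negative, which is the background for the sign counts of each list. Genes of cold and drought response were the list with the highest median, 0.96, and all 4 measured members were positive. COR15A, for a protein that protects chloroplasts in the cold, read 2606, 505 and 1195 in the null mutant, against 382, 446 and 458 in the substitution, and 108, 262 and 161 in the double transformant. COR47, for a dehydrin, read 3231, 1303 and 2128 in the null mutant, against 1168, 1161 and 1127 in the substitution and 1874, 1779.8 and 1628 in the double transformant. LTI30, for another dehydrin, read 1009.6, 173 and 269.9 in the null mutant, against 158, 191 and 163 in the substitution. In these 3 genes null mutant 1 was by far the highest array and null mutant 2 lay near the substitution. COR15A differed by 1.44 ± 0.47 (limma adjusted p = 0.667) and COR47 by 0.85 ± 0.25 (adjusted p = 0.624). Without null mutant 1 they differed by 0.86 and 0.53 and the list median was 0.44, and without null mutant 2 COR47 passed at 1.18 (adjusted p = 0.0343).

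Cell wall loosening genes, the longest list with 28 measured members, had 14 positive and 14 negative members, and 19 positive and 9 negative without null mutant 2. Within them the alpha-expansins were mostly lower in the null mutant, 7 of 10, with a median of -0.37, which was -0.41 and -0.38 with centred and quantile-normalized arrays. EXPA9 was at 45.4, 58.4 and 49.5 in the null mutant, against 93.5, 82.3 and 84.4 in the substitution and 32.6, 20.8 and 27.0 in the double transformant, with -0.72 ± 0.20 (limma adjusted p = 0.561). EXPA8, the brightest, read 450.4, 442 and 399.6 in the null mutant, against 577, 547 and 554 in the substitution and 274, 129 and 157 in the double transformant, with -0.38 ± 0.21. Both had null mutant arrays between the other 2 groups. EXPA20 and XTH19 were also lower in the null mutant without overlap, by -1.08 and -0.73, but at mutant signals below 24.

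Of 8 photosynthesis genes none passed, separated the groups or had an unadjusted p under 0.05. Their median difference was 0.29 with 7 of 8 positive, and 0.05 with 6 of 8 positive after quantile normalization. Leaving out null mutant 1 or 3 gave medians of 0.12 and 0.13, and leaving out null mutant 2 gave 0.58. PSAN, a subunit of photosystem I, averaged 4511 in the null mutant, against 3215 in the substitution, with 0.42 (limma adjusted p = 0.837), and PSBW of photosystem II differed by 0.37. The 69 transcripts of the chloroplast genome had a median of 0.09, with 43 positive. The 4 leaf senescence genes were all negative, with a median of -0.22. Without null mutant 3, substitution 1 or substitution 3 only 3 of them were negative, and the median was -0.10 without substitution 1 and -0.37 without substitution 3, and -0.40 with 4 negative without substitution 2. WRKY53, a transcription factor that promotes senescence, read 12.3, 3.97 and 0.813 in the null mutant, against 36.2, 16.2 and 14.9 in the substitution and 2.00, 4.38 and 2.59 in the double transformant. It differed by -1.53 ± 0.47 (limma adjusted p = 0.628) at signals close to background.

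In the remaining lists the members with the smallest p varied in both directions. ACS, for acetyl-CoA synthetase, was lower in the null mutant without overlap, at 148, 170.1 and 79.5, against 206, 196.5 and 177 in the substitution, while ALDH2C4, an aldehyde dehydrogenase gene, was higher, at 493, 476 and 625, against 384, 436 and 436 in the substitution. They differed by -0.60 ± 0.23 and 0.33 ± 0.14 (limma adjusted p = 0.727 and 0.772). Without null mutant 3 the values were -0.27 and 0.21. UGT78D1, a flavonol rhamnosyltransferase gene, was at 78.2, 73.9 and 56.7 in the null mutant, against 43.5, 45.4 and 55.9 in the substitution, which is 0.49 ± 0.20. AT5MAT, for an anthocyanin malonyltransferase, differed by -1.02 ± 0.39 at signals below 9. GTR2, a glucosinolate transporter, differed by -0.64 and AOP1, of glucosinolate synthesis, by 0.65, both with overlap, and without null mutant 3 by -0.28 and 0.38. For jasmonate response, PDF1.2 differed by -0.87 and THI2.1 by -0.68, which were -0.53 and -0.17 without null mutant 1, and for heat shock ATHSP22.0 differed by -0.59 and Hsp70-2 by -0.44, the second of which was -0.26 without null mutant 3.

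Genes related to HDA6 function were few in the annotation used here. Of the histone deacetylases and partners 3 were measured, with a median of 0.32, and LDL2, a histone demethylase homologue, and HDA15, another deacetylase, differed by 0.57 and 0.32. All 3 were positive, but without null mutant 3 only 2 were, with a median of 0.07, HDA15 at 0.07 and LDL2 at 0.34. Without substitution 1 the median was 0.15. The lists for RNA-directed silencing and methylation maintenance had a single measured member each, which cannot stand for the pathway. AGO7, an Argonaute gene, differed by -0.51, but by 0.15 without substitution 2, which read 15.6 against 1.09 and 0.75 in the other substitution arrays. DME, a DNA glycosylase gene, differed by -0.17. Flowering genes had a median of -0.08, with 5 of 6 negative. Without null mutant 3 it was 0.09 and without substitution 2 it was 0.01, each with 2 of 6 negative. The floral repressors SMZ and SNZ differed by 0.25 and -0.46, and by 0.09 and 0.23 without null mutant 3. None of these passed or separated the groups. Markers of other tissues did not pass either, and their part in the results was not tested. None of the markers in the 5 tissue lists had an unadjusted p under 0.05. Their differences ran from -0.07 to 0.75 for flower organs, -0.44 to 0.61 for pollen and tapetum, -0.47 to 0.25 for seeds, -0.37 to 0.51 for roots and -0.44 to 0.37 for meristems. Several rested on 1 array. ATA27 of the tapetum differed by 0.61 with all arrays and by 0.06 without null mutant 1, and PAP85 of seeds differed by -0.38 and by 0.15 without null mutant 1.

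**Figure D5:**
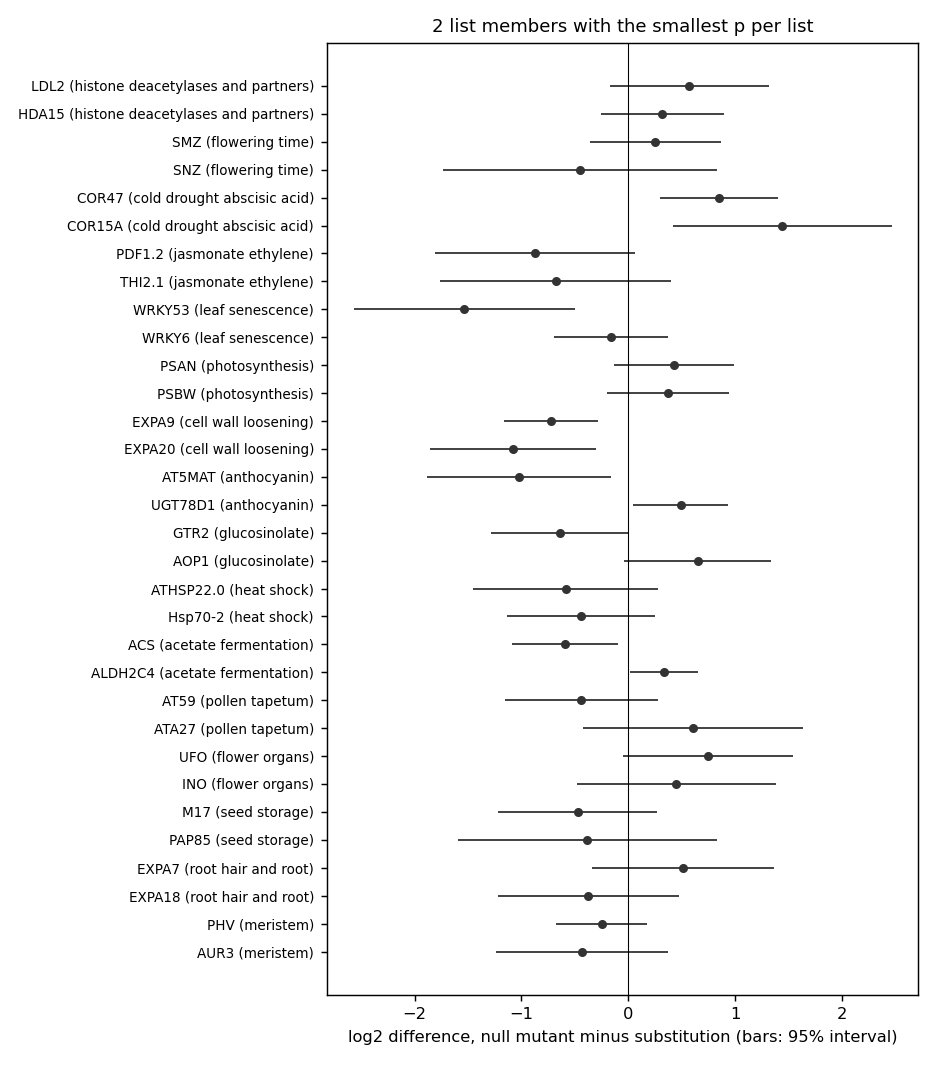
Log2 difference, null mutant minus substitution (x axis, bars: 95% interval), of the 2 members with the smallest p from each list with at least 3 measured members (list name in brackets). The intervals of COR47, COR15A, UGT78D1 and ALDH2C4 lie above 0 and those of WRKY53, EXPA9, EXPA20, AT5MAT and ACS below 0, and none of these genes passed after adjustment over all probe sets.

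Broad classes of loci had medians near 0. The 923 pseudogene loci, where RefSeq also files genes of transposable elements, had a median of 0.07, with 62 (6.72%) above and 36 (3.9%) below without overlap, beside 6.22% and 5.31% of all loci, and 0 passing in limma, where 49 (5.31%) had an unadjusted p under 0.05. The medians of the 5 nuclear chromosomes ran from 0.02 to 0.05. Of the 82 probe sets that passed in both mutants against the double transformant, chosen with these same arrays, 0 passed between the mutants, and the null mutant lay above without overlap for 11 and below for 10, which is 25.6% beside 11.7% of all probe sets. Their median absolute difference was 0.21, against 0.20 for all 22746 probe sets and 0.14 for the 11268 with a double transformant mean above the median signal. For 56 of the 82 the 95% interval of the difference lay within 1 on the log2 scale either way. This held for 13988 of all 22746 probe sets and for 10319 of the 11268 brighter ones. For the others of the 82 these arrays leave room for a larger difference.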

How the data were processed

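Whole-plant RNA was measured on 9 single-colour Affymetrix ATH1 arrays. The authors deposited each array's intensity values as linear MAS5 signals. Per the submitters' processing notes, the tools were MAS5 and GCOS; their versions were not given in the sources used here. The mean of each array after trimming 2% at each end lay close to 100.01, so the arrays had been scaled before deposit. Groups and replicate numbers came from the sample titles.

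From 22810 probe sets, 64 controls were left out. An offset c of 4.03, which is percentile 20 of all values, was added to each signal before taking log2. All 9 arrays entered 1 linear model in limma 3.58.1 (R 4.3.3) with moderated variances that follow a trend in intensity. P-values were adjusted (Benjamini-Hochberg) over 22746 probe sets. The model was tested on simulated data. Platform names were updated through gene identifiers with RefSeq TAIR10.1, used for names and gene order only. It gave 13513 probe sets 1 gene, of which 13436 matched a locus, 503 several genes and 8730 none, and 13286 loci were each read by their brightest probe set. Of 697 symbols in the 20 lists 101 were measured, after 4 name collisions were dropped.

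Genes named were all that passed, the 12 higher and 12 lower loci with the smallest p among those with no overlap and a higher group mean above the median signal, the 2 members with the smallest p of each list, and the largest rises and falls of an earlier look. Other genes named (further members of the cold and expansin groups, single loci of the chromosome 5 stretch and neighbours) were chosen after their values were seen. All members and lists were chosen with earlier results of these data known. Deviations of same-numbered null mutant and substitution arrays correlated at 0.0986, 0.0133 and 0.0335, and no pairing was assumed. Alternatives were other offsets, leaving out dim probe sets, scaling by quantiles or by the median, weights per array, a replicate block, other priors on the variance, the rpt ending of 3 titles as a term or left out, 6 arrays only, other thresholds, no moderation and leaving out single arrays.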

Additional observations from a re-analysis of the deposited data

How the results depend on the processing

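The 9 calls (8 higher and 1 lower in the null mutant) depended on the settings. All 9 differences kept their sign in the 23 settings in which they were fitted, but this tests nothing. Their mutant arrays did not overlap, so leaving out arrays could not reverse a sign. Several other settings change the variance but not the difference. The count was 11 (8 higher, 3 lower) with an offset of 4c, 8 (8 higher, 0 lower) with quantile normalization, 5 (5 higher, 0 lower) with arrays centred on their median, 4 (3 higher, 1 lower) with only the 6 mutant arrays, 11 (9 higher, 2 lower) at adjusted p under 0.1 and 3 (3 higher, 0 lower) at adjusted p under 0.01. In limma without an intensity trend it was 0, with 1344 probe sets at an unadjusted p under 0.05, and without moderation it was 0, with 1295 at that p. Leaving out single arrays gave 0 to 48 calls, 0 to 20 of them higher and 0 to 28 lower. Null mutant 3 and double transformant 3 left out together, chosen after seeing the data, gave 0 calls in limma, with 1121 at an unadjusted p under 0.05. With the rpt ending of 3 titles as a term there were 5 calls (5 higher, 0 lower), and without those 3 arrays 18 (14 higher, 4 lower); each group holds 1 rpt array, so no value within them was possible. The replicate block gave 7 calls (6 higher, 1 lower), AT5G22580 among them, and the numbers share no more than a number. The cause of these changes was not tested beyond the fewer arrays or stricter threshold that some settings have by construction.

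The median of the chromosome 5 stretch was 0.82 with an offset of 4c, 0.83 to 0.93 without single mutant arrays and 0.90 without null mutant 3 and double transformant 3. Of 81 followed genes that were not called, 72 never changed sign and 9 did in at least 1 setting. Signals near the offset carry little level, and 3 arrays a group limit the precision.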

Other observations

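Neighbouring loci outside the chromosome 5 stretch were also compared, chosen after their values were seen, so they are described without a test of the group. Beside AT3G16670, its neighbour AT3G16660 was lower in the null mutant too, at 32.5, 67.2 and 26.9, against 96.3, 92.4 and 107 in the substitution and 186, 95.7 and 98.6 in the double transformant. It differed by -1.25 ± 0.31 (limma adjusted p = 0.424), and null mutant 2 was the highest of its group for both loci. On chromosome 1, AT1G72890, AT1G72900, AT1G72920 and AT1G72940 were all lower in the null mutant without overlap, by -0.66, -1.21, -1.51 and -1.05. On chromosome 4, AT4G15660, AT4G15680 and AT4G15690 differed by -0.45, -1.14 and -0.93, and the window centred on AT4G15660 had the lowest median of the genome, -0.45. Their neighbour AT4G15700 read 41.0, 62.2 and 32.7 in the null mutant, against 103, 102 and 73.1 in the substitution and 42.6, 39.6 and 52.9 in the double transformant. None of these passed.

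BHLH101, a transcription factor gene of the iron deficiency response, read 201, 370.5 and 155 in the null mutant, against 579, 470.2 and 477 in the substitution and 495, 320.4 and 359 in the double transformant. It differed by -1.15 ± 0.26 (limma adjusted p = 0.368), while PYE, which acts in the same response, differed by -0.19. AT4G29370, at 51.9, 71.8 and 72.9 in the null mutant, against 27.2, 25.8 and 19.0 in the substitution and 1.37, 3.31 and 1.14 in the double transformant, had the reverse order of mutants, with 1.31 ± 0.30 (limma adjusted p = 0.368). Both had mutant arrays that did not overlap.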
